A study of Mus musculus with 16 samples.

Results

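The Hox genes are homeobox genes that lie in 4 clusters, and those named on the array were examined on 16 one-colour expression arrays of mouse pluripotent stem cell lines. Every gene probe whose name on the array was Hoxa, Hoxb, Hoxc or Hoxd followed by a number was taken, which gave 49 probes for 38 genes among 41174 gene probes. Hoxc11 was not among these genes. The probes lie on chromosome 6 (cluster A, 11 genes), chromosome 11 (cluster B, 10 genes), chromosome 15 (cluster C, 8 genes) and chromosome 2 (cluster D, 9 genes). Of the 49 probes, 47 were well above background on at least 2 arrays and were tested, and each of the 38 genes had such a probe. The probes left out were the dimmer probes of Hoxb8 and Hoxd3. A gene stands below for its probe with the highest mean.

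The study profiled embryonic stem (ES) cells, epiblast stem cells (EpiSC) and lines called EpiSC-like, in the NOD mouse strain and in non-NOD mice. The NOD arrays were 4 of 1 EpiSC-like ES line (line 1, at passages 7, 10, 5 and 9, replicates 1 to 4), 2 of an EpiSC-like line made by reprogramming (induced pluripotent stem, iPS; line 6, at passages 7 and 12) and 3 of NOD ES cells, each with a title code of its own. The non-NOD arrays were 2 of EpiSC (passages 12 and 20), 2 labelled iPS_EpiSC (here EpiSC iPS), 2 of 129 ES cells at passage 8 labelled mESM and 1 of 129 ES cells at passage 8 labelled epiESM. The labels spell out no agent or age, expand neither mESM nor epiESM, and give the EpiSC no strain beyond non-NOD. In the title codes, the NOD ES arrays carry the letters K, KP/CH and KP in replicate order. The EpiSC iPS arrays carry M and K. The labels do not expand these letters, so whether a treatment or factor differs within these groups cannot be told. Each EpiSC-like group is 1 line at several passages, so its replicates are arrays of a line. The p-values below rest on the spread between arrays within groups, pooled over all groups. They measure neither the spread of this line's arrays alone nor that between EpiSC-like lines. Per the labels, ES cells were freed of feeder fibroblasts by plating on gelatin, whereas EpiSC and the lines like them were picked off mechanically.

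Hox proteins are transcription factors that give cells of the embryo their place along the head-to-tail axis. Within a cluster, genes with low paralog numbers are in general switched on earlier and further towards the head than those with high numbers, and the Hox genes of a cluster share a direction of transcription. In pluripotent cells most Hox promoters are held silent by Polycomb proteins, and retinoic acid, Wnt and fibroblast growth factor signals open them as cells leave pluripotency. EpiSC correspond to the epiblast after implantation, the tissue from which the first Hox-expressing cells arise.

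Promoters of Hox genes are known for dense CG dinucleotides. A promoter, taken here as the 250 bases before a RefSeq transcription start (GRCm38.p6), was on hand for 22 of the 38 genes (24 promoters). The median Hox promoter held 12.5 CG dinucleotides against 6 over all 32851 promoters, and 31.54% of all promoters held at least as many. The promoters below are those of genes the comparisons turn on. Hoxa2 and Hoxa5 differed between the NOD EpiSC-like lines, Hoxb1 was measured high in EpiSC, and Hoxd8 differed between the NOD lines. CG dinucleotides are in capitals.
Hoxa2: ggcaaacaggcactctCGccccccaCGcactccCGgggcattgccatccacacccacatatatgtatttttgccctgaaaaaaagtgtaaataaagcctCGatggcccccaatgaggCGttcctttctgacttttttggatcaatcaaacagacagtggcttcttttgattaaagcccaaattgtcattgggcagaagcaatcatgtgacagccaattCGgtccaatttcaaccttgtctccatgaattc
Hoxa5: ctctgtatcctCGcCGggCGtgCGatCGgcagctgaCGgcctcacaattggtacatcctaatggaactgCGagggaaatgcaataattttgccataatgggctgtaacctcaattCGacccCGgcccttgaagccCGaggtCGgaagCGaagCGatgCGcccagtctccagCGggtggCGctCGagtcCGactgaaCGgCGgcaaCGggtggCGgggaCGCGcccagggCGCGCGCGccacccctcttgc
Hoxb1: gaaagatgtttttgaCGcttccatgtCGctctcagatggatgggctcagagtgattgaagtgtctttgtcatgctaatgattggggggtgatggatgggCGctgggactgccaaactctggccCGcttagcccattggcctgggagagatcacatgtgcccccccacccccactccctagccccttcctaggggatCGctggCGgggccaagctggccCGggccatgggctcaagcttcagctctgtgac
Hoxd8: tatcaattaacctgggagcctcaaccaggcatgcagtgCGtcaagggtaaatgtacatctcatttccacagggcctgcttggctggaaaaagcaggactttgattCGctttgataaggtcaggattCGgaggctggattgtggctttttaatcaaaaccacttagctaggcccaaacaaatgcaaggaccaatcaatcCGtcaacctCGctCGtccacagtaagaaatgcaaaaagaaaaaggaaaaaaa
These windows lie at chr6:52164832-52165081 on the minus strand (Hoxa2), chr6:52204588-52204837 on the minus strand (Hoxa5), chr11:96365508-96365757 on the plus strand (Hoxb1) and chr2:74704365-74704614 on the plus strand (Hoxd8). They held 6, 28, 7 and 6 CG dinucleotides. On both strands, the letters TGATNNAT, which PBX and HOX proteins bind together, were found once each in the Hoxa2 and Hoxb1 windows, and AGGTCA, the half-site of retinoic acid receptors, once in the Hoxd8 window. Over the 24 Hox promoters TGATNNAT was in 16.67% and AGGTCA in 25%, against 7.683% and 14.02% of all promoters. TTTATG, bound by Cdx proteins, was in 20.83% against 10.76%, and TATAAA in 16.67% against 12.37%. A match describes the letters of the window and does not show that a protein binds there.

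Array quality and labels bear on every Hox value. Between 26.3% and 88.5% of gene spots were well above background per array. The array labelled NOD ES replicate 1 (26.3%) differed less from EpiSC iPS replicate 1 (SD of log2 differences 0.697) than from the other NOD ES arrays (1.13 and 1.15), and the array labelled EpiSC iPS replicate 2 (40.5%) differed less from NOD ES replicates 2 and 3 (0.387 and 0.397) than from EpiSC iPS replicate 1 (0.963). Each count of called Hox genes is therefore given with and without those arrays, while counts of markers and other listed genes are given only with them. Counts under other processing, or with other arrays left out, are given without the share of all genes called. Those counts do not set Hox genes apart from the whole array. The mESM arrays were the closest pair named here (0.200) and share a source label, so results against mESM are also given with them counted as 1 array. Fibroblast markers moved with the groups: the summed level of 20 markers, on a linear scale where the array's 75th percentile is 1, was 737 to 1063 in the EpiSC-like ES line, 809 and 862 in the EpiSC-like iPS line, 458 and 508 in EpiSC, 102 to 453 in NOD ES, 44.1 and 49.8 in mESM, 393 on epiESM and 104 and 1235 in EpiSC iPS. Of those markers, at least 14 were well above background on every array. The summed level of 13 neural markers was 74.7 to 90.1 in the EpiSC-like ES line, 20.9 and 24.1 in the EpiSC-like iPS line, 42.5 and 44.3 in EpiSC, 6.70 to 17.8 in NOD ES, 7.12 and 7.11 in mESM, 6.47 on epiESM and 6.53 and 14.1 in EpiSC iPS. That of 12 mesendoderm markers was at most 24.4, 13.8 and 14.1, 61.4 and 61.7, 1.96 to 3.77, 2.71 and 2.74, 1.82, and 2.03 and 3.05 in the same order. The part of these cell types in the Hox results was not tested. No slide held both EpiSC and mESM, or both EpiSC iPS and EpiSC. The same was true of NOD ES with mESM and of the EpiSC-like iPS line with NOD ES. On the arrays of these comparisons, group and slide cannot be told apart.

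Each of the 38 Hox genes was measurable on at least 2 arrays, and few of them on every array. A gene was counted on an array when at least 1 of its probes was well above background. Hoxa7 and Hoxb6 were counted on all 16 arrays, 17 genes on 12 or more arrays, and Hoxb8, Hoxc8 and Hoxd1 on 4 or fewer. The EpiSC-like ES line had 21, 37, 34 and 33 Hox genes well above background in replicates 1 to 4. The EpiSC-like iPS line had 30 and 24, and EpiSC 20 and 32. ES cells had 24 and 24 in mESM, 27 on epiESM, and 5, 21 and 29 in NOD ES, and EpiSC iPS had 17 and 6. The groups overlapped, and the Hox count followed the array: the arrays with the fewest probes above background overall (NOD ES replicate 1 and EpiSC iPS replicate 2) had the fewest Hox genes, and the array with the most (EpiSC-like ES replicate 2) had the most. Both mESM arrays had 55.1% of Hox probes well above background against 72.3% of all gene probes. EpiSC had 44.9% against 54.9% on replicate 1 and 75.5% against 71.1% on replicate 2, so that its arrays lay on either side of the array as a whole. The EpiSC-like ES line had 46.9% against 55.8%, 98.0% against 87.8%, 79.6% against 72.0% and 77.6% against 73.9%. The EpiSC-like iPS line had 67.3% against 68.5% and 55.1% against 64.4%. NOD ES had 10.2% against 25.9%, 49.0% against 67.0% and 67.3% against 71.4%. On epiESM it was 59.2% against 63.0%, and in EpiSC iPS 40.8% against 50.7% and 12.2% against 40.1%.

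The Hox gene with the highest mean level in each cluster was Hoxa7, Hoxb6, Hoxc4 and Hoxd12. Hoxb6, a gene of the thoracic region, was at -0.91, -1.18, -0.68 and -0.44 in the EpiSC-like ES line, -0.35 and 0.98 in the EpiSC-like iPS line, -0.63 and -0.65 in EpiSC, 0.42 and -1.08 in EpiSC iPS, 0.76, -0.27 and -0.39 in NOD ES, -0.50 and -0.50 in mESM and 0.67 on epiESM. The groups overlapped, and Hoxb6 by this probe was called in none of the 8 comparisons. A further Hoxb6 probe, given below, was called higher in the EpiSC-like ES line than in NOD ES and in the NOD EpiSC-like lines than in EpiSC. Hoxc4 was at 0.56 and 0.67 in mESM, above every other array, and between -0.92 and 0.43 elsewhere; it too was called in none, with the differences of EpiSC (-1.16, SE 0.40, limma adjusted p 0.0621) and NOD ES (-1.22, SE 0.37, adjusted p 0.0707) from mESM missing the threshold.

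**Figure D1:**
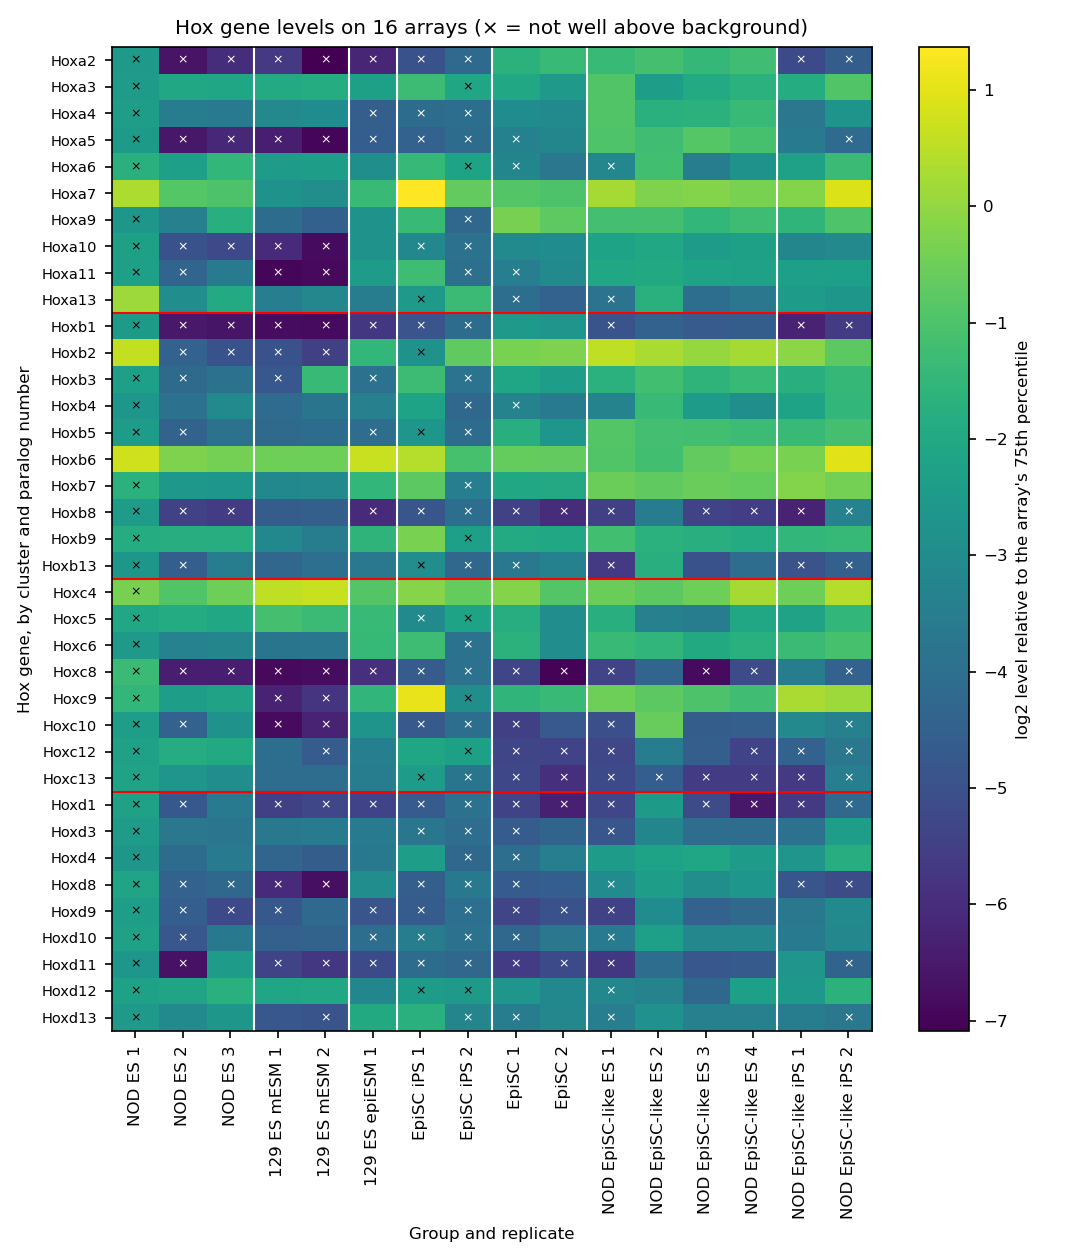
Levels of 37 Hox genes (rows, by cluster and paralog number) on the 16 arrays (columns, by group and replicate), as log2 of the signal relative to the array's 75th percentile; a cross marks a gene not well above background. Hoxa2, Hoxa5 and Hoxb1 were dim in ES cells and brighter in EpiSC or the EpiSC-like ES line, and NOD ES replicate 1 shows most of its Hox genes not above background at about the same colour.

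**Figure D2:**
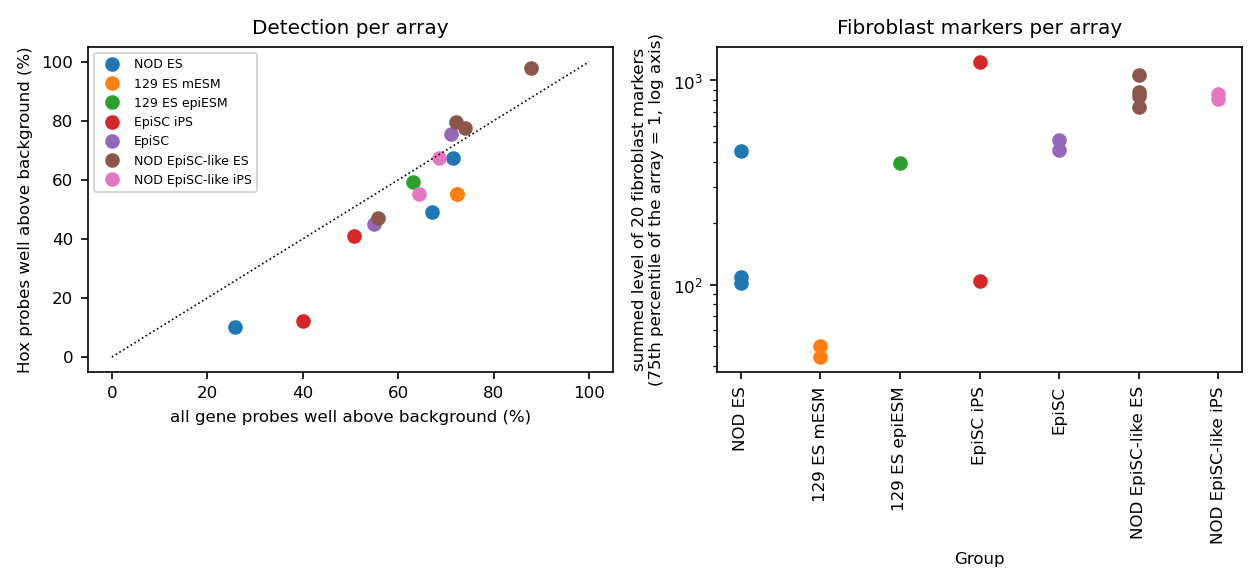
Left, percent of the 49 Hox probes against percent of all gene probes well above background, 1 point per array coloured by group, with the dotted line marking equal percents; right, summed level of 20 fibroblast markers per array on a log axis. The array with 10.2% of Hox probes above background is NOD ES replicate 1, and the lowest marker sums, 44.1 and 49.8, are the mESM arrays.

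The comparison of EpiSC with 129 ES cells in mESM asked how Hox genes differ between EpiSC and ES cells outside NOD. In EpiSC 11 of 38 Hox genes were higher (28.9%, against 12.1% of all 23374 genes) and 0 lower (against 10.8% of all genes) by limma with Benjamini-Hochberg adjustment over all probes (2 were lower and 14 higher at an unadjusted p under 0.05). They were 6 of the 11 genes of cluster A, 3 of 10 in cluster B, 1 of 8 in cluster C and 1 of 9 in cluster D. By position they were 3 of 8 genes with paralog numbers 1 to 3, 3 of 15 with 4 to 8 and 5 of 15 with 9 to 13. The median log2 difference was 0.68 over the Hox genes and -0.28 over all genes. In bulk RNA, more cells expressing a gene and more RNA per cell cannot be told apart.

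Among the anterior genes, Hoxa2, which patterns the hindbrain and the second pharyngeal arch, had log2 levels of -1.64 and -1.36 in EpiSC and -5.68 and -7.09 in mESM, where it was not well above background. It was at least 10.8-fold higher in EpiSC (log2 difference 4.88, SE 1.01, limma adjusted p 0.00555). Hoxb1, a marker of rhombomere identity and an early retinoic acid target, was at -2.50 and -2.68 in EpiSC and at -6.82 and -6.83, not above background, in mESM (at least 5.06-fold, adjusted p 0.0137). Both genes separated the groups without overlap. Hoxb2, which acts beside Hoxb1 in the hindbrain, was at -0.35 and -0.27 in EpiSC and at -4.96 and -5.48, not above background, in mESM (at least 24.5-fold, adjusted p 0.0269).

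Of the central genes, Hoxa5, a regulator of lung and cervical development, was at -3.37 and -3.22 in EpiSC, above background on the latter array. In mESM it was at -6.39 and -6.97, not above background (limma adjusted p 0.0303). Hoxb5 was at -1.80 and -2.65 in EpiSC and -4.15 and -4.09 in mESM (log2 difference 1.89, SE 0.60, adjusted p 0.0429). Hoxa7 was well above background on all 4 arrays, at -0.88 and -1.01 in EpiSC and -2.76 and -2.92 in mESM (1.90, SE 0.62, adjusted p 0.0489). In each gene the EpiSC arrays were the higher ones.

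Among the posterior genes, Hoxa9, known for its role in trunk patterning and blood progenitors, was at -0.36 and -0.72 in EpiSC and at -4.09 and -4.45 in mESM, above background on all 4 arrays (log2 difference 3.73, SE 0.74, adjusted p 0.00451). Hoxc9, a gene of the thoracic region, was at -1.57 and -1.40 in EpiSC and at -6.25 and -5.79, not above background, in mESM (at least 10.9-fold, adjusted p 0.00466). Hoxa10 was at -3.03 and -2.97 against -6.09 and -6.85 (at least 3.82-fold, adjusted p 0.00706). These genes, too, did not overlap between the groups. Hoxa11, a limb and uterine patterning gene, was at -3.48 and -3.08, above background on the latter array, against -6.93 and -6.87, not above background (limma adjusted p 0.00522). Hoxd13, the last gene of its cluster, was at -3.55 and -3.17 against -4.80 and -4.90 (1.49, SE 0.43, adjusted p 0.0298). It was well above background on only 1 of the 2 arrays in each group.

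In this comparison 17 of 20 fibroblast markers were higher and 0 lower (summed level 458 and 508 in EpiSC, 44.1 and 49.8 in mESM). Neural markers were 7 higher and 0 lower of 13 and mesendoderm markers 6 higher and 1 lower of 12. The part of these cell types was not tested. The Hoxb1, Hoxb2 and Hoxa5 calls were lost without any 1 of the 4 arrays (adjusted p 0.0655 to 0.162) and with the mESM arrays counted as 1 (0.0764, 0.119 and 0.127), and the Hoxa2 and Hoxa10 calls without mESM replicate 2 (0.0616 and 0.0679). The count of called Hox genes fell to 5 without either EpiSC replicate or without mESM replicate 1, to 3 without mESM replicate 2, and to 5 with the mESM arrays counted as 1. Without the arrays labelled NOD ES replicate 1 and EpiSC iPS replicate 2, which lie outside this comparison but enter the shared estimate of the spread, 15 Hox genes were higher and 1, Hoxc4, lower (43.3% of all genes called), and in the authors' deposited value table, Hox calls were 6 higher and 1 lower. After normexp correction 2 were called.

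**Figure D3:**
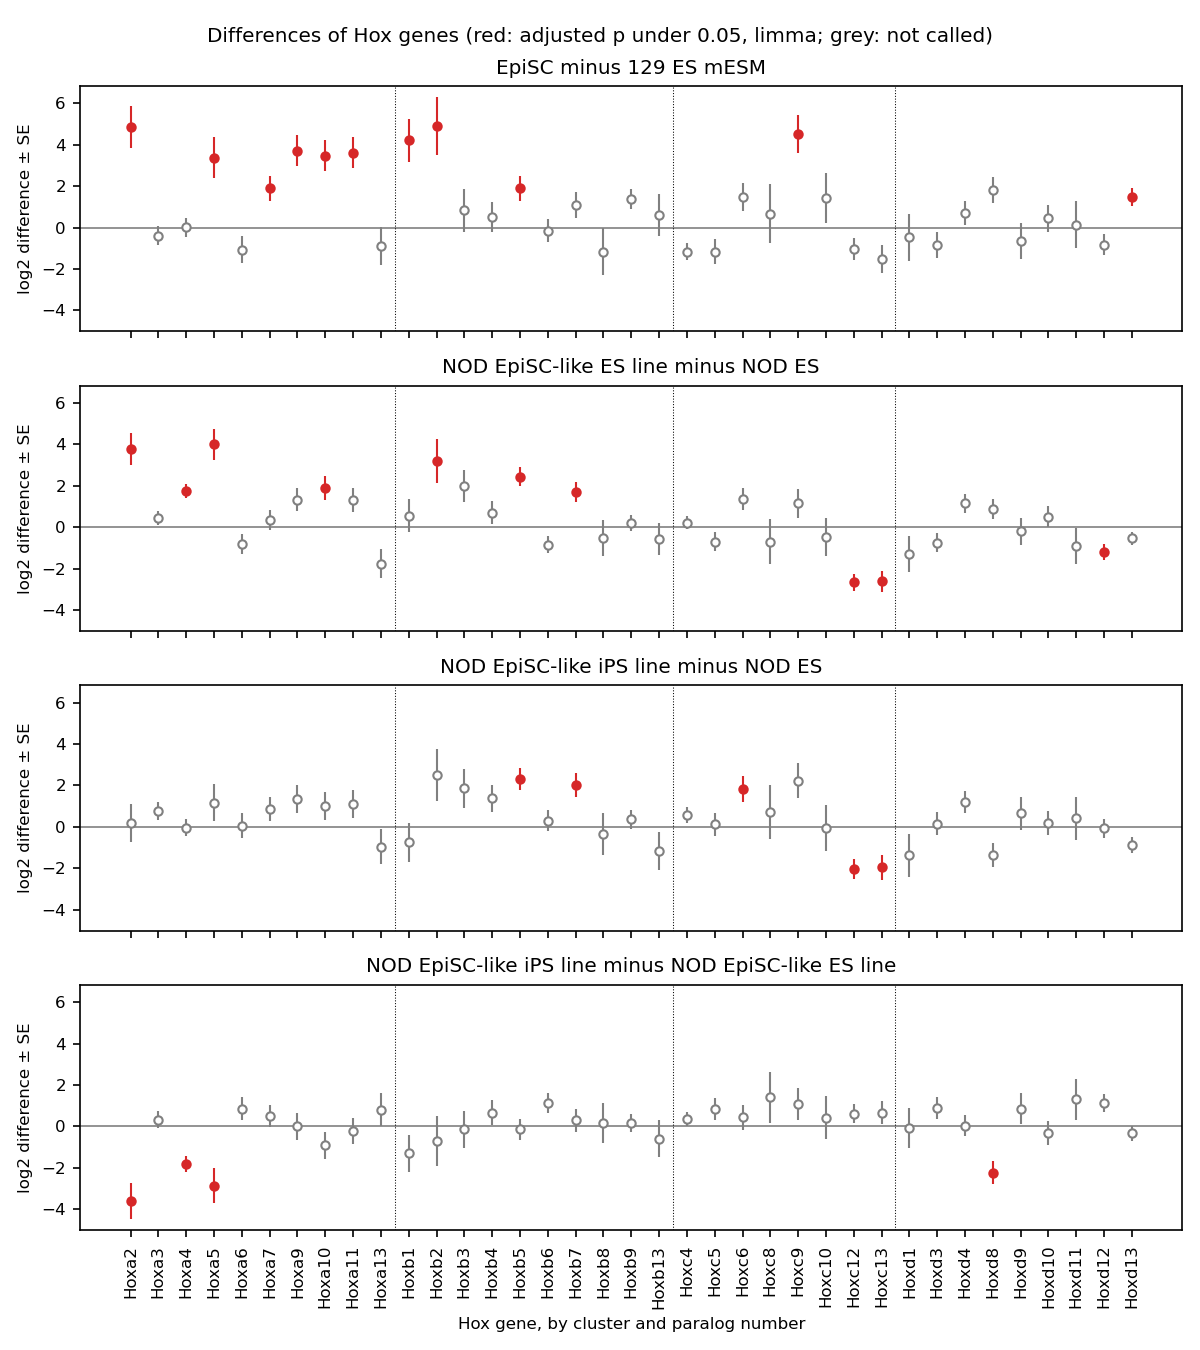
Log2 differences with standard errors (points and bars) of 37 Hox genes in 4 comparisons, by cluster and paralog number, dotted lines dividing the clusters; red points passed limma's adjusted p of 0.05. The red points of EpiSC against mESM lie above 0 and those of the EpiSC-like iPS line against the EpiSC-like ES line below it, among them Hoxa2, Hoxa4, Hoxa5 and Hoxd8.

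The EpiSC-like ES line was compared with NOD ES cells as the NOD counterpart of the same question. Here 7 of 38 Hox genes were higher (18.4%, against 17.5% of all genes) and 4 lower (10.5% against 23.3%), with a Hox median of 0.29 against -0.41 over all genes. The share of higher genes was thus near that of the array. The higher genes were 4 of cluster A and 3 of cluster B, with 0 of 8 in cluster C and 0 of 9 in cluster D, and the lower ones included Hoxc12, Hoxc13 and Hoxd12. This split did not hold without the arrays labelled NOD ES replicate 1 and EpiSC iPS replicate 2. Clusters A to D then had 7, 5, 2 and 3 higher genes.

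Hoxa2 was at -1.35, -1.13, -1.47 and -1.21 in the EpiSC-like ES line and at -2.56, -6.64 and -5.97 in NOD ES, not above background there (at least 3.49-fold, log2 difference 3.77, SE 0.77, adjusted p 0.00247). Hoxa5 was at -0.96, -1.22, -0.88 and -1.08 against -2.46, -6.53 and -6.13, again not above background in NOD ES (at least 4.17-fold, adjusted p 0.00137). In both genes the highest NOD ES value was replicate 1, and every array of the line lay above it. Hoxa4, which helps set cervical identity, was at -0.91, -1.71, -1.64 and -1.38 against -2.38, -3.50 and -3.65 (1.76, SE 0.34, adjusted p 0.00182), but its other probe was not called and the mean over its probes gave an adjusted p of 0.0879. Hoxa10 was at -2.20, -2.06, -2.46 and -2.27 against -2.29, -4.96 and -5.22 (at least 1.80-fold, adjusted p 0.0209). Here the groups overlapped, through NOD ES replicate 1.

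In cluster B, Hoxb2 was at 0.54, 0.29, 0.04 and 0.23 in the line and at 0.59, -4.44 and -4.96 in NOD ES (log2 difference 3.21, SE 1.06, adjusted p 0.0328), so that replicate 1 of NOD ES was higher than every array of the line. Hoxb5 was at -0.90, -1.17, -1.19 and -1.29 against -2.44, -4.41 and -3.91 (2.45, SE 0.46, adjusted p 0.00133). Hoxb7 was at -0.54, -0.70, -0.56 and -0.63 against -1.70, -2.59 and -2.63 (1.70, SE 0.49, adjusted p 0.0167). For Hoxb5 and Hoxb7 the groups did not overlap. Hoxb1, higher in EpiSC than in mESM, was at -4.89, -4.44, -4.65 and -4.59 in the line and at -2.47, -6.50 and -6.60 in NOD ES, and was not called (0.55, SE 0.79, adjusted p 0.604).

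Genes that fell included some of the posterior end. Hoxc12 was at -5.29, -3.51, -4.53 and -5.40 in the line and at -2.26, -1.85 and -1.96 in NOD ES (-2.66, SE 0.41, adjusted p 0.000349). Hoxc13, a gene of hair and nail growth, was not above background in the line, at -5.18, -4.55, -5.61 and -5.61 against -2.21, -2.69 and -2.95 (lower, limma adjusted p 0.00171). No fold is given because NOD ES replicate 1 was not above background either. Neither gene overlapped between the groups. Hoxd12 fell by 1.21 on the log2 scale (SE 0.39, adjusted p 0.0296).

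In this comparison 16 of 20 fibroblast markers were higher and 0 lower, neural markers were 6 higher and 1 lower of 13, and mesendoderm markers 7 higher and 1 lower of 12. Their part was not tested. NOD ES replicate 1 was not well above background for any gene given here but Hoxb2. Without the arrays labelled NOD ES replicate 1 and EpiSC iPS replicate 2, 17 Hox genes were higher and 3 lower (53.1% of all genes called); Hoxa2 then differed by 5.01, Hoxa5 by 5.30, Hoxa10 by 2.84, Hoxb2 by 4.98 and Hoxb5 by 3.02 and Hoxb1 passed at 1.91 (SE 0.20, adjusted p 4.17e-05). Without NOD ES replicate 3 only 6 Hox genes were called and without NOD ES replicate 1 17 were; the Hoxb2 call was lost without any 1 of the line's arrays or of NOD ES replicates 2 and 3 (adjusted p 0.0524 to 0.14), and the Hoxa10 call without NOD ES replicate 2 or 3 (0.0861 and 0.0958). On slide 4, the only slide that held both groups, the differences were 5.17 for Hoxa2, 5.11 for Hoxa5, 4.99 for Hoxb2, 2.99 for Hoxb5 and -1.60 for Hoxc12. The split of calls was 13 higher and 4 lower in the authors' deposited value table, 12 and 2 when arrays were scaled on probes above background everywhere, and 4 and 0 after normexp background correction. The shares of all genes called in these settings are not given here.

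The EpiSC-like iPS line was set against the same NOD ES arrays. Of 38 Hox genes 3 were higher (7.89%, against 15.3% of all genes) and 3 lower (7.89% against 17%), with a median of 0.33 against -0.04 over all genes. Hoxb5 (2.32, SE 0.55, adjusted p 0.00713), Hoxb7 (2.01, SE 0.58, adjusted p 0.0216) and Hoxc6 (1.82, SE 0.63, adjusted p 0.0487) were the higher ones. Hoxb5 was at -1.40 and -1.14 in this line and Hoxb7 at -0.21 and -0.40, above every NOD ES array. Hoxc6, a thoracic patterning gene, was at -1.33 and -1.09 against -2.50, -3.35 and -3.22.

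Hoxc12 and Hoxc13 were among the genes that fell in this line. Hoxc12 was at -4.42 and -3.73 (limma adjusted p 0.00734) and Hoxc13 at -5.65 and -3.48 (adjusted p 0.0298). Neither was above background in the iPS line or on NOD ES replicate 1, so no fold is given. Hoxa2 was not called (0.17, SE 0.92, adjusted p 0.915), with both arrays, -5.18 and -4.59, not above background.

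In the iPS line 10 of 20 fibroblast markers were higher than in NOD ES and 0 lower, neural markers were 4 higher and 1 lower of 13, and mesendoderm markers 6 higher and 2 lower of 12. Their part was not tested. Without the arrays labelled NOD ES replicate 1 and EpiSC iPS replicate 2, 15 Hox genes were higher and 4 lower (49% of all genes called), among them Hoxb2 (4.27, SE 0.29, adjusted p 3.08e-06), Hoxa5 (2.44, SE 0.25) and Hoxc9 (2.50, SE 0.25). Leaving out iPS replicate 1 or 2 left 2 or 3 called genes, and leaving out NOD ES replicate 1 gave 11. The Hoxb5 call was lost without iPS replicate 2 (adjusted p 0.0574), the Hoxc12 call without iPS replicate 1 (0.0758), the Hoxc13 call without iPS replicate 1 or NOD ES replicate 1 or 2 (0.339, 0.0606 and 0.0596), and the Hoxb7 and Hoxc6 calls without either iPS array or NOD ES replicate 2 or 3 (0.0624 to 0.199). After normexp correction 23 Hox genes were higher and 0 lower, with Hoxc12 and Hoxc13 on the positive side (1.25 and 1.43, not called). The median of all genes was then 1.02 and that of Hox genes 1.79, so the array as a whole had moved up too. The share of all genes called after that correction is not given here. Quantile normalization and the deposited value table each gave 5 and 3, and scaling on probes above background everywhere gave 4 and 2.

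The EpiSC-like lines were then compared with each other. In the iPS line 0 Hox genes were higher and 5 lower than in the ES line (0 against 13.4% of all genes higher, and 13.2% against 11.4% lower), and 2 were higher at an unadjusted p under 0.05. The lower genes included the anterior to central genes Hoxa2, Hoxa4, Hoxa5 and Hoxd8, with 0 of the 15 genes with paralog numbers 9 to 13. The share of lower genes was close to that of all genes. Without the arrays labelled NOD ES replicate 1 and EpiSC iPS replicate 2, 1 gene with paralog numbers 9 to 13 was higher, Hoxc9, and 1 lower, Hoxa10. The Hox median was 0.24 and the median of all genes 0.27, so most Hox genes lay with the rest of the array.

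Hoxa2, not above background in the iPS line at -5.18 and -4.59, was between -1.47 and -1.13 in the ES line (at least 5.97-fold lower, adjusted p 0.0122). Hoxa5 was at -3.64 and -4.13 against -1.22 to -0.88 (-2.85, SE 0.85, adjusted p 0.0312). The lines did not overlap in either gene. Hoxa4 was at -3.74 and -2.71 against -1.71 to -0.91 (-1.81, SE 0.39, adjusted p 0.00656), but its other probe lay on the opposite side, at -3.02 and -2.11 against -4.33, -2.27, -3.55 and -3.05 (0.73, SE 0.60, adjusted p 0.393). Hoxd8, not above background in the iPS line or on ES line replicate 1, was at -4.81 and -5.11 against -3.01 to -2.34 (lower, limma adjusted p 0.0121).

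**Figure D4:**
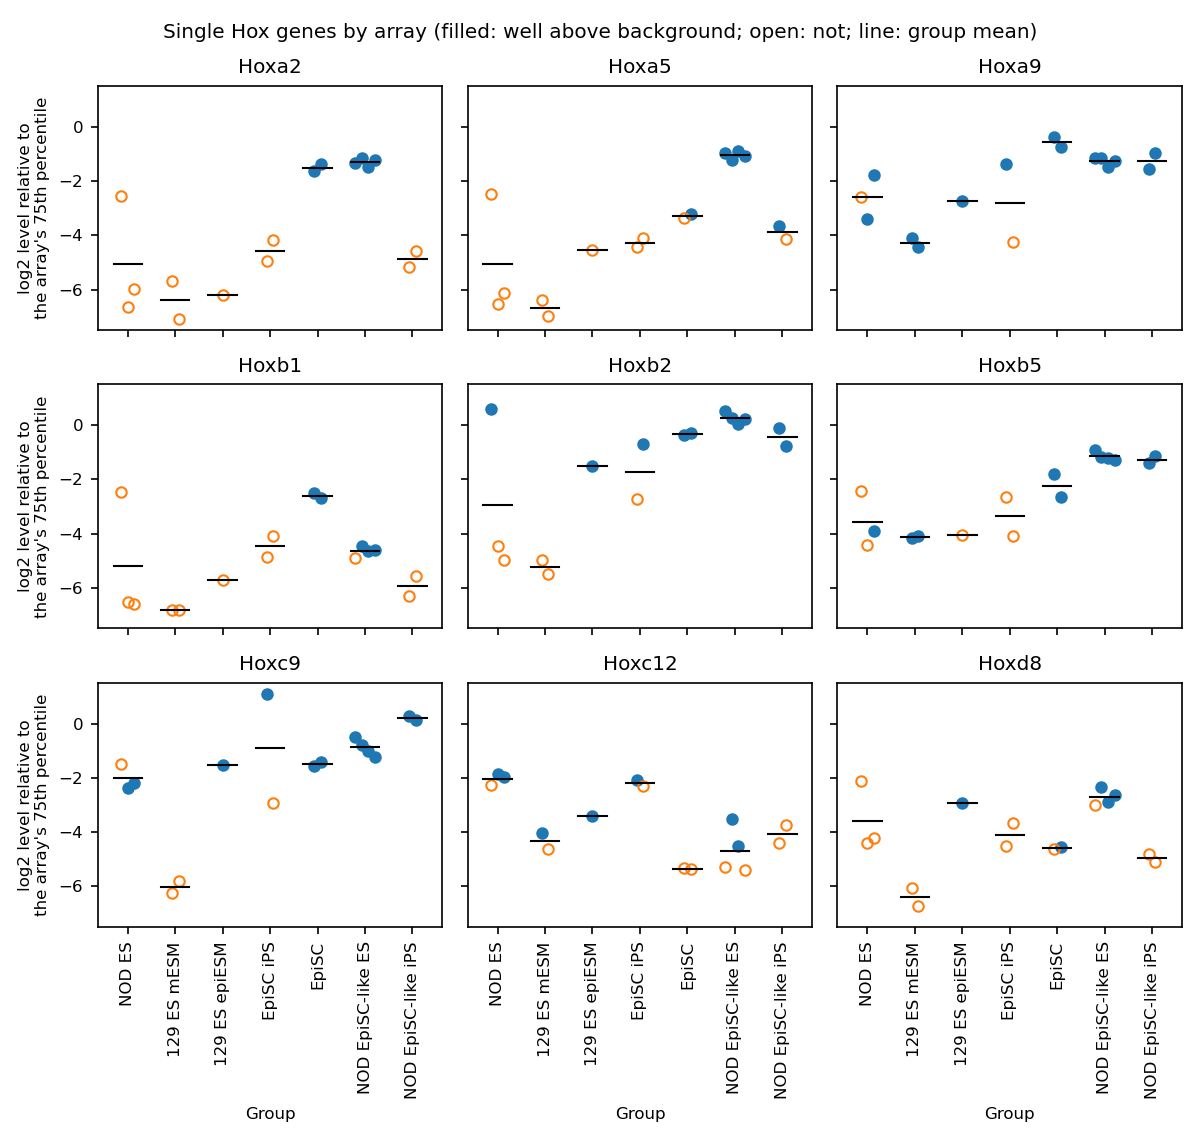
Log2 levels relative to the array's 75th percentile of 9 Hox genes on each array, by group; filled points are well above background, open points are not, and lines are group means. Hoxa2 and Hoxa5 lie between -1.47 and -0.88 on the EpiSC-like ES arrays and at -5.18 to -3.64 on the EpiSC-like iPS arrays, while Hoxa9 lies between -1.54 and -0.95 on the arrays of both lines.

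On slide 1, which held an array of each line, the differences were -3.84 for Hoxa2, -2.83 for Hoxa4, -2.69 for Hoxa5 and -1.81 for Hoxd8. Fibroblast markers were 0 higher and 4 lower of 20 in the iPS line, with summed levels that overlapped (809 and 862 against 737 to 1063). Neural markers were 1 higher and 4 lower of 13, with sums of 20.9 and 24.1 against 74.7 to 90.1, mesendoderm markers 2 higher and 4 lower of 12, and primed epiblast markers 0 higher and 5 lower of 10. Their part was not tested. Without the arrays labelled NOD ES replicate 1 and EpiSC iPS replicate 2, which are in neither line, 3 Hox genes were higher and 8 lower (49.7% of all genes called). Leaving out either iPS array left 2 called genes: the Hoxa2 and Hoxa5 calls were lost without iPS replicate 1 (adjusted p 0.0758 and 0.0843) or 2 (0.0671 and 0.204), the Hoxa4 call without replicate 1 (0.075), the Hoxd8 call without replicate 2 (0.111), and the Hoxa5 call also without ES line replicate 1, 3 or 4 (0.0575 to 0.0642). After normexp correction 0 Hox genes were called, and Hoxa2, Hoxa4, Hoxa5 and Hoxd8 were on the positive side (0.49, 0.78, 0.45 and 1.32).

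Against EpiSC, the NOD EpiSC-like lines, weighted equally, had 0 Hox genes higher and 1 lower (2.63%, against 7.43% of all genes lower and 7.39% higher); 4 were higher and 2 lower at an unadjusted p under 0.05. Hoxb1, at -2.50 and -2.68 in EpiSC against -6.29 to -4.44 in the NOD lines, missed the threshold (-2.70, SE 0.86, adjusted p 0.0605). A further probe of Hoxb6, not the one that stands for the gene, was higher in the NOD lines (1.89, SE 0.49, adjusted p 0.0275). Among fibroblast markers 1 of 20 was higher and 0 lower, among neural markers 0 and 0 of 13, among mesendoderm markers 1 and 5 of 12, and among primed epiblast markers 0 and 9 of 10; their part was not tested. With NOD ES replicate 1 and EpiSC iPS replicate 2 left out, 9 Hox genes were higher and 3 lower (40.1% of all genes called), with Hoxb1 lower at an adjusted p of 1.68e-05, and the deposited value table gave 1 higher and 3 lower.

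The EpiSC iPS arrays were compared with EpiSC. Hoxc12 and Hoxc13 were higher, 2 of 38 (5.26%, against 11% of all genes), and 0 were lower, against 8.81% (19.8% in either direction; 4 higher and 3 lower at an unadjusted p under 0.05). Hoxc12 was at -2.08 and -2.30 on the EpiSC iPS arrays, above background on the former, and at -5.33 and -5.37, not above background, in EpiSC (limma adjusted p 0.00196). Hoxc13 was at -2.41 and -3.80 against -5.25 and -5.92 (adjusted p 0.0239), but was well above background in neither group, so no fold is given. Hoxa2 was at -4.95 and -4.19, not above background, and its difference from EpiSC missed the threshold (-3.07, SE 1.01, adjusted p 0.0571).

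This comparison rests on the EpiSC iPS arrays, which differed from each other: Hoxa11 and Hoxa9 were at -1.27 and -1.38 on replicate 1 and at -3.96 and -4.26, not above background, on replicate 2. Fibroblast markers differed in the same way (summed level 1235 and 104), with 0 higher and 3 lower of 20 against EpiSC; neural markers were 0 higher and 5 lower of 13, mesendoderm markers 0 and 7 of 12 and primed epiblast markers 1 and 7 of 10. Their part was not tested. Without replicate 2 and NOD ES replicate 1 the EpiSC iPS side is 1 array, assumed to vary like the other groups, and 9 Hox genes were higher and 4 lower (40.5% of all genes called), with Hoxa2 lower at -3.45 (SE 0.52, adjusted p 0.00104) and Hoxc9 higher at 2.59 (SE 0.31, adjusted p 0.000282). The count was 1 without either EpiSC array, 5 without EpiSC iPS replicate 1 and 8 without replicate 2, and the Hoxc13 call was lost without EpiSC replicate 1 or 2 or EpiSC iPS replicate 1 (adjusted p 0.0641, 0.16 and 0.146). Calls were 2 higher and 4 lower after quantile normalization, 1 and 3 in the deposited value table, and 1 and 2 with scaling on probes above background everywhere.

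Between the ES cells, 6 of 38 Hox genes were higher in NOD ES than in mESM (15.8%, against 5.45% of all genes) and 0 lower, against 2.58% (8.03% in either direction; 11 higher and 1 lower at an unadjusted p under 0.05). They were Hoxa7, Hoxa11, Hoxc9, Hoxc12, Hoxd8 and Hoxd13, with 0 of 8 genes with paralog numbers 1 to 3 and 4 of 15 with 9 to 13. Hoxc9 was at -1.50, -2.37 and -2.20 in NOD ES, above background on replicates 2 and 3, and at -6.25 and -5.79, not above background, in mESM (limma adjusted p 0.0162). No fold is given because NOD ES replicate 1, the highest, was not above background. Hoxa11 was at -2.33, -4.34 and -3.63 against -6.93 and -6.87 (3.47, SE 0.68, adjusted p 0.0125), but was well above background on NOD ES replicate 3 alone, so no fold is given. Hoxd13 was at -2.54, -3.06 and -2.62 against -4.80 and -4.90 (2.11, SE 0.39, adjusted p 0.0102), Hoxc12 at -2.26, -1.85 and -1.96 against -4.04 and -4.63 (2.31, SE 0.49, adjusted p 0.0171), and Hoxa7 at 0.33, -0.85 and -1.01 against -2.76 and -2.92 (2.33, SE 0.57, adjusted p 0.03). These genes did not overlap between the groups. Hoxd13 and Hoxc12 were each well above background on 2 of 3 NOD ES arrays and 1 of 2 mESM arrays. Hoxd8 was well above background on no array of either group, so its call (adjusted p 0.0149) has no fold.

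The ES comparison depends on the mESM arrays. Counted as 1 array, or without either of them, they gave 0 called Hox genes. Fibroblast markers were 9 higher and 0 lower of 20 in NOD ES, with sums of 453, 109 and 102 in replicates 1 to 3 against 44.1 and 49.8 in mESM; neural markers were 0 and 0 of 13 and mesendoderm markers 1 and 2 of 12. Their part was not tested. Without the arrays labelled NOD ES replicate 1 and EpiSC iPS replicate 2, 10 Hox genes were higher and 1, Hoxc4, lower (24.5% of all genes called, 16% higher and 8.51% lower), and Hoxc9 differed by 3.73 (SE 0.25, adjusted p 4.95e-05). The deposited value table gave 3 higher and 1 lower, and scaling on probes above background everywhere 5 and 1.

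The difference between states was itself compared between backgrounds, as the EpiSC-like lines minus NOD ES less EpiSC minus mESM. For 2 of 38 Hox genes this difference was below 0 (5.26%, against 6.81% of all genes below and 4.36% above), and for 0 above (8 below and 1 above at an unadjusted p under 0.05). Hoxd13 was higher in EpiSC than in mESM and not called in the NOD lines (-2.20, SE 0.53, adjusted p 0.024). Its probe was well above background on 1 of 2 EpiSC and 1 of 2 mESM arrays, so this result includes values near background. Of the fibroblast markers 1 was above and 3 below, of the mesendoderm markers 1 and 5, and of the primed epiblast markers 0 and 7; their part was not tested.

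The Hoxd13 interaction was lost without EpiSC replicate 1 or 2, NOD ES replicate 3 or either mESM array (adjusted p 0.0546 to 0.114), and the count of called genes was 1 without either EpiSC or either mESM array and with the mESM arrays counted as 1, and 4 without NOD ES replicate 1. Without the arrays labelled NOD ES replicate 1 and EpiSC iPS replicate 2, 10 Hox genes were below 0 and 2 above (33.6% of all genes called). Among them were Hoxb1 (-2.97, SE 0.30, adjusted p 0.000175), Hoxc9 (-2.58, SE 0.33, adjusted p 0.000492) and, above 0, Hoxb7 (1.06, SE 0.17, adjusted p 0.00159). The deposited value table gave 1 above and 3 below.

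Genes that act with or upstream of Hox genes were counted in the same fits, from lists chosen with earlier results of these data known. The list results are given only with NOD ES replicate 1 and EpiSC iPS replicate 2 included. On NOD ES replicate 1, 0 of 10 posterior regulators, 0 of 6 hindbrain regulators and 6 of 17 retinoic acid genes were well above background. Differences from NOD ES in these lists therefore include values near background. Of 7 cofactors of the TALE class, whose proteins bind DNA beside Hox proteins, 3 were higher and 1 lower in EpiSC than in mESM, and likewise in the EpiSC-like ES line against NOD ES; in the EpiSC-like iPS line 3 were higher and 0 lower. Meis1 (3.80, SE 0.58) and Pbx3 (1.89, SE 0.33) were among the higher ones in EpiSC. Of 6 hindbrain regulators 3 were higher and 1 lower in EpiSC, 3 and 0 in the ES line, and 2 and 2 in the iPS line. Egr2, an activator of Hoxa2 and Hoxb2 in the hindbrain, was 6.68 higher (SE 0.28) in EpiSC than in mESM and 3.85 higher (SE 0.21) in the ES line than in NOD ES, and it fell by 2.58 (SE 0.26) in the iPS line. Between the lines Egr2 fell by 6.43 on the log2 scale (SE 0.24, limma adjusted p 4.58e-07) in the iPS line.

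Of 17 retinoic acid enzymes, receptors and targets 8 were higher and 2 lower in EpiSC, 9 and 3 in the EpiSC-like ES line and 5 and 1 in the iPS line. Cyp26a1, which degrades retinoic acid, differed by 5.93 (SE 0.48) in EpiSC, 4.15 (SE 0.36) in the ES line and 3.42 (SE 0.43) in the iPS line. Crabp1, which binds retinoic acid in the cytoplasm, was higher in all of these (3.67, SE 0.74; 4.13, SE 0.56; 5.73, SE 0.67), and Stra8, a retinoic acid target of germ cells, was lower in all (-8.29, SE 0.89; -5.40, SE 0.68; -6.01, SE 0.82). Of 10 posterior regulators, among them Cdx genes and Brachyury (T), 2 were higher and 2 lower in EpiSC, 1 and 2 in the ES line and 1 and 4 in the iPS line. Gbx2, which sets the front border of the hindbrain and is on both the posterior and the hindbrain list, was lower in EpiSC (-3.55, SE 0.44) and the iPS line (-3.17, SE 0.41). Cdx1, an activator of Hox genes in the tail bud, was lower in the ES line (-3.07, SE 0.76) and the iPS line (-2.61, SE 0.91).

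Of 19 Polycomb proteins, which hold Hox clusters silent, 4 were higher and 6 lower in EpiSC, 4 and 9 in the ES line and 3 and 9 in the iPS line; Cbx7, a reader of the Polycomb mark, was lower in EpiSC (-3.73, SE 0.34), the ES line (-4.83, SE 0.26) and the iPS line (-3.55, SE 0.31). Of 7 trithorax proteins and H3K27 demethylases, which oppose Polycomb, 2 were higher and 1 lower in EpiSC, 0 and 5 in the ES line and 0 and 2 in the iPS line. Of 11 genes flanking the clusters 0 were higher and 3 lower in EpiSC, 0 and 1 in the ES line and 0 and 4 in the iPS line. Of 14 markers of naive ES cells, which check the labels, 0 were higher and 11 lower in EpiSC, 0 and 12 in the ES line and 1 and 12 in the iPS line. Of 10 primed epiblast markers 7 were higher and 1 lower in EpiSC, 5 and 3 in the ES line and 3 and 4 in the iPS line, where the label EpiSC-like is thus not borne out by this list. Their summed level was 122 and 125 in EpiSC, 32.2 to 38.3 in the ES line, 17.9 and 18.2 in the iPS line and 29.7 to 38.5 in NOD ES. These counts stand beside 22.9%, 40.7% and 32.3% of all genes called in either direction in the respective comparisons.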

How the data were processed

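RNA of 16 samples in 7 groups was hybridised, 1 colour, to Agilent arrays, and each group is defined by its label. The deposited scanner files hold processed signal intensity after the scanner software's background subtraction, per the file headers; the deposited value table holds the authors' log2 values, made with limma per the submitters' processing notes, with settings not given in the sources used here. Each probe's log2 intensity, control and outlier spots left out, was scaled to the array's 75th percentile. limma 3.58.1 (R 4.3.3) was fitted over all 16 arrays with 1 mean per group, and p-values were adjusted (Benjamini-Hochberg, 0.05) over 34289 probes well above background on at least 2 arrays. A probe's flag needed at least 50% of its spots. The fit was tested on simulated data. A gene with no array above background on the dimmer side and every array above it on the brighter side has a lower bound. This is its bright mean over the higher, per array, of the dim signal and the lowest signal above background. Where an array of the brighter side was not above background, no bound is given. The number of arrays limits the precision. Per-array values were to be given for up to 8 called Hox genes per comparison, by size, and the brightest of each cluster; Hoxb5, Hoxa7 and Hoxd13 in EpiSC against mESM, and Hoxb7 and Hoxd12 in the EpiSC-like ES line, complete the counts. Of other lists, genes among the 4 largest differences were named. Background correction, scaling, filters, probes, slide and left-out arrays were varied. Some genes that entered the counts are not reported here. Members and lists were chosen with earlier results of these data known.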

Additional observations from a re-analysis of the deposited data

Results flagged for a closer look

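On the EpiSC-like ES line replicate 2, 4 of 38 Hox genes stood apart from the other arrays of the line, all as higher values. Hoxc10 was at -0.58 against -5.03 to -4.51, Hoxb8 at -3.51 against -5.55 to -5.39, Hoxa13 at -1.72 against -4.03 to -3.72 and Hoxd13 at -2.81 against -3.48 to -3.40. That array also had the largest share of all gene probes well above background (87.8%), whose part was not tested. Chance sets apart about 1 in 20 groups of this kind. How many of all genes stood apart on that array was not counted, so the 4 are not set against the array as a whole.

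The difference of EpiSC or EpiSC-like lines from ES cells differed between NOD and non-NOD lines, by limma's interaction test, for Hoxd13 (-2.20, SE 0.53, adjusted p 0.024).

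The single epiESM array, which entered no comparison, had 6 Hox genes well above background that were not above it on either mESM array. Hoxa10 was at -2.74 (mESM -6.85 and -6.09), Hoxa11 at -2.46 (-6.93 and -6.87), Hoxb2 at -1.49 (-5.48 and -4.96), Hoxc9 at -1.51 (-6.25 and -5.79), Hoxc10 at -2.70 (-6.85 and -6.25) and Hoxd8 at -2.93 (-6.73 and -6.08). Hoxa2, Hoxa5 and Hoxb1, at -6.19, -4.55 and -5.72, were not above background there. In the other direction, the probes that stand for Hoxa4, Hoxb5, Hoxb8 and Hoxd10 were above background on both mESM arrays and not on epiESM. Of all gene probes 63.0% were well above background on epiESM and 72.3% on each mESM array, and of Hox probes 59.2% and 55.1%. How many of all genes differed in this way was not counted. The summed fibroblast marker level was 393 on the epiESM array and 44.1 and 49.8 in mESM, and its part was not tested.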

How the results depend on the processing

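Counts of called Hox genes below are in the order EpiSC against mESM, EpiSC-like ES line against NOD ES, EpiSC-like iPS line against NOD ES, iPS against ES line, EpiSC-like lines against EpiSC, EpiSC iPS against EpiSC, NOD ES against mESM, and the interaction, and were 11, 11, 6, 5, 1, 2, 6 and 2 as reported. They were 2, 4, 23, 0, 0, 0, 0 and 0 with normexp background correction, 9, 15, 8, 5, 3, 6, 3 and 4 with quantile normalization, 7, 17, 8, 6, 4, 4, 4 and 4 in the deposited value table, and 9, 14, 6, 5, 1, 3, 6 and 1 with the percentile over probes above background on all arrays. Slide as a fixed block gave 5, 17, 5, 5, 2, 13, 0 and 0, and as a random block 8, 11, 5, 5, 2, 2, 3 and 1. Fitting only the groups compared gave 24, 13, 5, 8, 13, 2, 0 and 6, averaging the mESM arrays 5, 12, 5, 5, 1, 2, 0 and 1, the mean over a gene's probes 9, 9, 6, 4, 1, 2, 5 and 1, no filter 9, 11, 5, 5, 1, 2, 6 and 2, and a filter of 4 arrays 11, 11, 6, 5, 2, 4, 6 and 3. Without NOD ES replicate 1 and EpiSC iPS replicate 2 the counts were 16, 20, 19, 11, 12, 13, 11 and 12, and without EpiSC-like ES replicate 2 as well, chosen after seeing the data, 20, 22, 20, 16, 16, 15, 12 and 12. Apart from the fit without NOD ES replicate 1 and EpiSC iPS replicate 2 alone, shares of all genes called are not given for these settings. The counts there do not set Hox genes apart from the whole array. In groups of 2, leaving out 1 array leaves a lone array assumed to vary like the other groups. Leaving out 1 array gave 3 to 5, 6 to 17, 2 to 11, 2 to 6, 1 to 1, 1 to 8, 0 to 7 and 1 to 4.

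Normexp correction reversed 7 differences: Hoxc12 (1.25) and Hoxc13 (1.43) in the iPS line against NOD ES, Hoxa2 (0.49), Hoxa5 (0.45), Hoxd8 (1.32) and Hoxa4 (0.78) between the lines, and the Hoxd13 interaction (0.23). It also moved the median of all genes, in the iPS line against NOD ES from -0.04 to 1.02 (Hox median 0.33 to 1.79) and between the lines from 0.27 to 0.73 (0.24 to 1.11); the cause was not tested. Relative to those medians, Hoxa2 and Hoxa5 were below in both settings between the lines, while Hoxd8 and Hoxa4 moved from below to above. With the scanner's laxer flag of a positive and significant signal, Hox genes detected rose from 20 to 31 on EpiSC replicate 1, from 17 to 32 and 6 to 16 on the EpiSC iPS arrays, from 5 to 14 and 21 to 33 on NOD ES replicates 1 and 2, and from 24 to 37 on EpiSC-like iPS replicate 2. No paired analysis was possible because the labels number replicates within the mESM group only. Hox genes near background, and groups of 2 or 3 arrays, limit these results.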

Other observations

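Where a Hox gene had several probes, they did not always move together. The probe of Hoxb6 that stands for the gene was not called in the EpiSC-like ES line against NOD ES (-0.83, SE 0.42, limma adjusted p 0.142), while the other, at -0.84, -0.67, -0.19 and -0.31 in the line and -1.17, -2.20 and -1.92 in NOD ES, was higher (1.26, SE 0.46, adjusted p 0.0469). The further Hoxb2 probe lies on the minus strand at 96459585 to 96459644 of chromosome 11 (build mm7, as the probe annotation gives it), opposite to the other Hoxb probes, and was well above background on 2 of 16 arrays, against 11 for the probe reported above. Hoxa13 had 1 probe well above background on 13 arrays and another on 2. For Hoxd13 it was 10 arrays for the probe reported above and 3 for the other.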
